A study of Mus musculus with 18 samples.

Results

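The 8 genes of mouse liver described here encode secreted factors of fasting and feeding, or their receptors. They are the hormone gene Fgf21, the growth factor gene Fgf1, the receptor and co-receptor genes Fgfr4 and Klb, the angiopoietin-like genes Angptl4 and Angptl6, the TGF-beta superfamily gene Gdf15, and Fst, which encodes the activin-binding protein follistatin. These are 8 of the 15572 genes in the RNA-seq table and were taken by gene symbol. They were chosen with their RNA difference between refed JMJD1C-LKO and refed WT liver in view, Fgf21 lower and Angptl4 higher, so the RNA values of these 8 genes are a description and carry no test. The study asked how JMJD1C, an enzyme that removes methyl groups from lysine 9 of histone H3 (H3K9), acts on liver genes when mice are refed after a fast. RNA-seq compared refed WT with refed JMJD1C-LKO liver, ATAC-seq (open chromatin) was made from fasted WT, refed WT and refed JMJD1C-LKO liver, and ChIP-seq for H3K9me2 compared WT fasted with WT refed liver, with 2 samples in each group.

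JMJD1C-LKO mice carried a floxed Jmjd1c allele and a Cre driven by the albumin promoter, which is active in hepatocytes, and WT animals were C57BL/6J littermates. By the general methods mice were 12 weeks old where nothing else is stated, and by the reporting summary they were used from 6 weeks on. All were kept on chow and fasted overnight, and refed mice then received a high-carbohydrate diet, for 6 h by the labels and for longer by the general methods. The labels give this same treatment text for every sample, so fasted and refed were read from the F and R of the sample titles and from peak names. Each RNA library was made from pooled RNA, so p-values measure the spread between 2 pools a group, and each ATAC and ChIP sample was 1 liver. H3K9me2 was not measured here in JMJD1C-LKO liver, and RNA was not measured here in fasted liver.

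FGF21 is a hormone made mainly by the liver, which acts on other organs through FGF receptors paired with the co-receptor beta-klotho, the product of Klb. In rodent liver Fgf21 is transcribed both in fasting, through PPAR-alpha, and after carbohydrate, through the carbohydrate response factor ChREBP, and also in the integrated stress response, through ATF4. ANGPTL4 is induced by fasting and inhibits lipoprotein lipase, the enzyme that releases fatty acids from circulating triglyceride. GDF15 is a stress hormone that acts on the brainstem, and follistatin, the product of Fst, binds and neutralises activins.

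Promoter sequences were read from RefSeq (build GRCm38.p6) and were matched for 5 of the 8 genes, Fgf21, Klb, Fgfr4, Angptl6 and Gdf15, with 6 start sites. The Fgf21 promoter is shown because it holds more of the searched motifs than any other of the 6 windows, and the Fgfr4 and Gdf15 promoters are shown beside it. Each covers the 250 bases before the start and is written 5′ to 3′ on the gene's strand. Capitals mark the E-box CACGTG, the ATF4 response element core TTGCATCA, the nuclear receptor hexamer AGGTCA and the TATA box TATAAA.
Fgf21, chr7:45615491-45615740, minus strand: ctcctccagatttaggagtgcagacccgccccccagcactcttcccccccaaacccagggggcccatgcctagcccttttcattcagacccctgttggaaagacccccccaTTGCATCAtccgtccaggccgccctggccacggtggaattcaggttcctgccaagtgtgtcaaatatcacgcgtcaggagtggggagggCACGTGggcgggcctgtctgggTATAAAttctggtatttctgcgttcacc
Gdf15, chr8:70632457-70632706, minus strand: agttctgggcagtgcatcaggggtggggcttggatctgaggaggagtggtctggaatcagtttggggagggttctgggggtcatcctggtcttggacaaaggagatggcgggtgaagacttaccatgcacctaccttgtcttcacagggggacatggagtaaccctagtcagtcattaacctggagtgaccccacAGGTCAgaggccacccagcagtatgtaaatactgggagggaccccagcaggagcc
Fgfr4, chr13:55152568-55152817, plus strand: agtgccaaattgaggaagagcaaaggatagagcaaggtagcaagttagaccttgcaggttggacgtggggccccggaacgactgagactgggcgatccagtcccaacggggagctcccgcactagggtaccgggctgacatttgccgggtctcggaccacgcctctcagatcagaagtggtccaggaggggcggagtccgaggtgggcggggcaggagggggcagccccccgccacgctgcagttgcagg

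In the Fgf21 window the ATF4 core began 139 bases, the E-box 50 bases and the TATA box 28 bases before the start. Over all 32851 promoter windows of this length, searched on both strands, 6.02% held CACGTG, 0.791% held TTGCATCA and 12.4% held TATAAA, and 4 windows held all 3. The Gdf15 window held AGGTCA 55 bases before its upstream start, as did 14.0% of all windows. The window of the second Gdf15 start held CACGTG 83 bases before it. The Fgfr4, Klb and Angptl6 windows held none of these motifs, nor the cAMP response element TGACGTCA, which 1.55% of all windows held. A match describes the letters of a window and is not evidence that a factor binds there.

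The RNA libraries held 51265128 to 54400509 estimated counts each, and 14151 genes passed the filter on low counts, all 8 members among them. The hepatocyte markers were abundant in all 4 libraries, with 10 of 10 genes detected and a summed level of 109504 to 120896 CPM (counts per 1000000 of the scaled library), most of it from Alb, whereas Lep, Plin1 and Retn of the adipocyte list were not in the table and its 2 remaining genes summed to 0.223 to 0.270 CPM. Jmjd1c itself read 22.0 and 22.8 CPM in WT and 20.04 and 20.48 CPM in JMJD1C-LKO, a log2 fold change of -0.14 ± 0.08 (SE, n = 2 libraries a group; edgeR adjusted p = 0.233). The counts cover the whole transcript and the deleted exons are not given in the sources used here, so this level, 90.5% of WT, shows no clear loss of Jmjd1c RNA and does not check the labels. The groups are those of the labels. Of the hepatocyte markers, Tat and Pck1 were higher in JMJD1C-LKO and none was lower. Some other cell types differed between the groups. All 8 Kupffer cell and macrophage markers were higher in JMJD1C-LKO, with sums of 245 and 251 CPM in WT against 482 and 695 CPM in JMJD1C-LKO, and 7 of 10 liver endothelium markers were higher (164 to 167 against 216 to 290 CPM; 4 and 3 of 10 without WT replicate 1 or 2). Cholangiocyte markers overlapped between the groups (25.7 to 29.9 CPM), as did blood markers (587 to 1059 CPM). The 3 of 8 exocrine pancreas markers that were detected summed to 5.96 to 5.98 CPM in WT and 9.09 to 9.20 CPM in JMJD1C-LKO. Most of that sum was Cela1 (5.3 and 5.1 against 8.1 and 8.2 CPM), the only 1 of the 3 past the threshold. In bulk liver, a change in the number of cells of a type and a change in RNA per cell cannot be told apart.

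Fgf21, the ligand, was the member with the largest fitted difference. Its RNA was 30.3 and 27.2 CPM in the WT libraries and 5.039 and 5.498 CPM in the JMJD1C-LKO libraries. Both JMJD1C-LKO libraries lay far below both WT libraries, and the libraries of each group lay close together. The fitted log2 fold change was -2.45 ± 0.11 (SE, n = 2 libraries a group), so that the JMJD1C-LKO level was 18.3% of WT. By the size of its change Fgf21 ranked 94 of the 14151 genes. The change was between -2.53 and -2.37 under all 10 alternative settings. The 3 genes whose profile over the 4 libraries was most like that of Fgf21 were Slc22a27, an organic anion transporter gene, Serpina4-ps1, a pseudogene whose reads may be shared with other Serpina genes, and Gadd45a, a growth arrest gene. Their distances from Fgf21, in log2 units over 4 libraries and among 11935 genes compared, were 0.338, 0.416 and 0.450, and Gadd45a read 9.32 and 7.30 CPM in WT against 1.92 and 1.40 CPM in JMJD1C-LKO.

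Fgf1, the acidic fibroblast growth factor that binds all FGF receptors, differed from Fgf21 in direction. It read 120.3 and 123.2 CPM in WT and 140.4 and 150.5 CPM in JMJD1C-LKO. The JMJD1C-LKO libraries were both above WT, by a log2 fold change of 0.26 ± 0.08 (SE, n = 2). Per kilobase of transcript, which lets genes be compared, Fgf1 and Fgf21 had about equal levels in WT, 31.1 ± 0.52 and 30.4 ± 2.26 CPM per kb (SD, n = 2), and their libraries overlapped. In JMJD1C-LKO the levels were 37.2 ± 1.82 and 5.56 ± 0.34 CPM per kb. The ratio of Fgf1 to Fgf21 was 0.963 and 1.10 in the WT libraries and 6.75 and 6.63 in the JMJD1C-LKO libraries.

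Klb, which encodes the co-receptor that FGF21 and the bile acid hormone FGF15 need, read 24.1 and 27.0 CPM in WT and 25.4 and 23.7 CPM in JMJD1C-LKO. The groups overlapped, with a log2 fold change of -0.05 ± 0.09 (SE, n = 2). Fgfr4, the main FGF receptor of hepatocytes, read 46.4 and 45.6 CPM in WT and 41.1 and 36.9 CPM in JMJD1C-LKO. Both JMJD1C-LKO libraries were lower, by a log2 fold change of -0.24 ± 0.08 (SE, n = 2), and the gap between the groups was of the size of the gap between the JMJD1C-LKO libraries. Per kilobase Fgfr4 was 1.85 to 2.11 times the level of Klb in WT and 1.70 to 1.77 times in JMJD1C-LKO.

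Angptl4 was the most abundant member per kilobase in both genotypes. It read 106 and 98.8 CPM in WT and 160 and 225 CPM in JMJD1C-LKO. Both JMJD1C-LKO libraries were above WT, but they differed from each other by a factor of 1.40, whereas the WT libraries differed by a factor of 1.08. The fitted log2 fold change was 0.91 ± 0.14 (SE, n = 2), or 1.88-fold. It was 0.64 without JMJD1C-LKO replicate 2 and 1.12 without JMJD1C-LKO replicate 1. Angptl6, whose product ANGPTL6 is a circulating relative of ANGPTL4, read 7.41 and 6.63 CPM in WT and 7.41 and 7.77 CPM in JMJD1C-LKO. These values overlapped, with a log2 fold change of 0.11 ± 0.14 (SE, n = 2). The ratio of Angptl4 to Angptl6 per kilobase was 11.8 and 12.2 in WT and 17.8 and 23.8 in JMJD1C-LKO.

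The genes most like Angptl4 over the 4 libraries were Aim2, a DNA sensor gene, Hpse, which encodes heparanase, and Coro1a, an actin-binding gene of leukocytes, at distances of 0.010, 0.029 and 0.036 log2 units. Coro1a read 4.69 and 4.47 CPM in WT and 7.33 and 10.1 CPM in JMJD1C-LKO. The macrophage and endothelial marker sums given above were, like Angptl4, higher in both JMJD1C-LKO libraries than in WT, with JMJD1C-LKO replicate 2 highest. The same order was seen in Tat and Pck1, the 2 of 10 hepatocyte markers past the threshold. Both are also genes of the glucocorticoid and hypoxia list below. None of the other hepatocyte markers had this order, and Alb and Hnf4a had log2 fold changes of -0.16 and -0.12. Tat read 592 and 516 CPM in WT and 1992 and 2908 CPM in JMJD1C-LKO, and Pck1 1525 and 1206 against 3104 and 3755 CPM. The lymphocyte markers read 10.99 to 12.54 CPM in WT and 21.3 and 27.6 CPM in JMJD1C-LKO, with 3 of 8 higher (2, 1 and 1 of 8 without WT replicate 1, WT replicate 2 or JMJD1C-LKO replicate 2, 5 without JMJD1C-LKO replicate 1), and the stellate cell markers 189 to 195 against 209 and 256 CPM. The part of these cell types in the Angptl4 values was not tested.

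**Figure D1:**
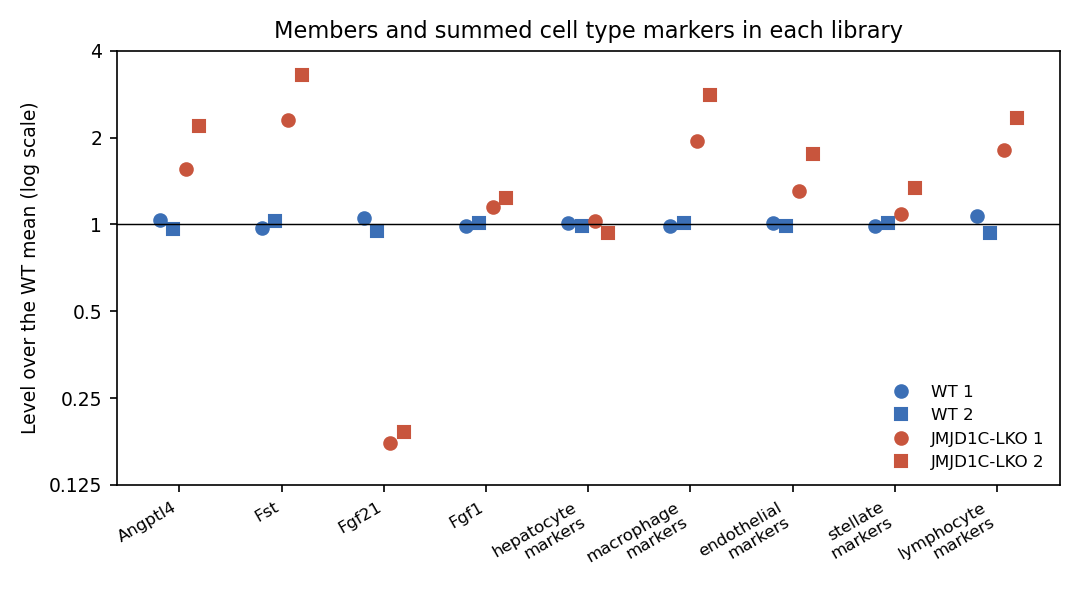
Level of 4 members and summed level of the markers of 5 cell types in each RNA library, divided by the mean of the 2 WT libraries (log axis, 1 point per library). The hepatocyte sum, mostly Alb, stays near 1, macrophage, endothelial and lymphocyte markers lie above 1 in both JMJD1C-LKO libraries with replicate 2 the higher, as do Angptl4 and Fst, and Fgf21 lies far below 1.

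Fst, the follistatin gene, was the member with the lowest RNA. It read 0.810 and 0.863 CPM in WT and 1.92 and 2.76 CPM in JMJD1C-LKO, from 42 and 45 counts in WT and 95 and 152 counts in JMJD1C-LKO. Both JMJD1C-LKO libraries were higher, with a log2 fold change of 1.48 ± 0.28 (SE, n = 2), and they too differed from each other, by a factor of 1.43. The log2 fold change was 1.20 without JMJD1C-LKO replicate 2. The estimated counts were divided over 3 Fst transcripts in different shares in each library, so the transcripts were added and not compared. As for Angptl4, the macrophage and endothelial markers moved with Fst. Of the hepatocyte markers Tat and Pck1 did so and the others did not. The part of these cell types in the Fst values was not tested. Gdf15, the stress hormone gene, read 3.13 and 2.82 CPM in WT and 3.12 and 2.47 CPM in JMJD1C-LKO, which overlapped, with a log2 fold change of -0.09 ± 0.21 (SE, n = 2).

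**Figure D2:**
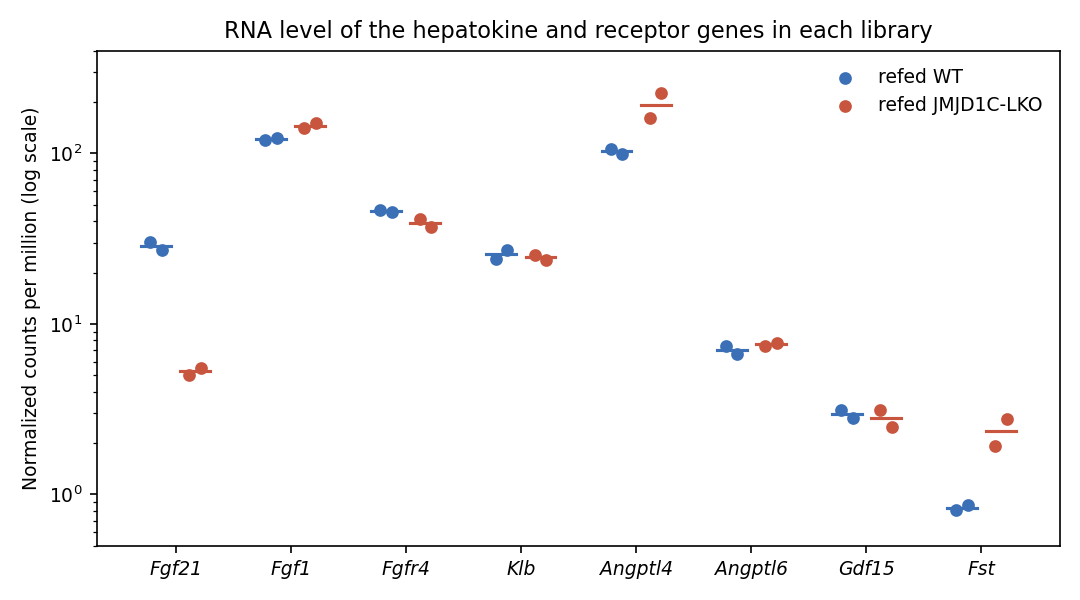
RNA level in CPM (log axis) of the 8 members in each of the 2 refed WT and 2 refed JMJD1C-LKO RNA libraries, with points for libraries and lines for group means. Fgf21 falls from about 29 to about 5 CPM, Angptl4 and Fst are higher in both JMJD1C-LKO libraries, and Klb, Angptl6 and Gdf15 overlap.

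The order of the members per kilobase in WT was Angptl4 at 53.9 ± 2.79, Fgf1 and Fgf21 as given, Fgfr4 at 14.6 ± 0.17, Klb at 7.42 ± 0.60, Angptl6 at 4.49 ± 0.34, Gdf15 at 2.11 ± 0.14 and Fst at 0.323 ± 0.009 CPM per kb (SD, n = 2 each). Apart from Fgf1 and Fgf21, no neighbours in this order overlapped. In JMJD1C-LKO Angptl4 read 101 ± 24.0, Fgfr4 12.4 ± 0.95, Klb 7.15 ± 0.35, Angptl6 4.85 ± 0.17, Gdf15 1.98 ± 0.31 and Fst 0.880 ± 0.247 CPM per kb (SD, n = 2 each). Fgf21 moved from the third place to the fifth, between Klb and Angptl6. Of the 8 members 1 was lower and 3 were higher past the threshold of adjusted p under 0.05, where 28.0% of all genes tested were past it, 14.6% higher and 13.4% lower. The members were chosen on this contrast, so nothing is read from that count. In 5 of 8 members the groups did not overlap, against 67.5% of all genes tested. The median log2 fold change was 0.03 over the members and 0.01 over all genes.

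The FGF receptor list held 24 genes besides the members, of which 12 were in the table and 10 were tested. Of these, 3 rose and 1 fell in JMJD1C-LKO (edgeR quasi-likelihood test, Benjamini-Hochberg adjusted p under 0.05, as for all lists below), with a list median of -0.001. Those that rose were 3 of the genes of cell-surface proteoglycans, which hold FGFs and other ligands at the membrane, Gpc1, Sdc4 and Sdc1. Sdc2 and Gpc4, of the same kind, did not pass, at log2 fold changes of -0.18 and -0.13 (edgeR adjusted p = 0.173 and 0.337). Gpc1 rose by 1.26 ± 0.17 on the log2 scale (SE, n = 2; edgeR adjusted p = 0.00107). Sdc4 read 294 and 275 CPM in WT and 370 and 400 CPM in JMJD1C-LKO. Among the receptors, Fgfr2 fell by 0.34 ± 0.10 on the log2 scale (edgeR adjusted p = 0.0333), while Fgfr3 at -0.29 ± 0.10 (edgeR adjusted p = 0.0530) and Fgfr1 at 0.27 ± 0.20 (edgeR adjusted p = 0.357) did not pass. The list's calls came to 2 without WT replicate 1, 1 without WT replicate 2, and 7 without JMJD1C-LKO replicate 1, and Fgfr2 lost its call without either WT replicate and without JMJD1C-LKO replicate 2. Kl, Fgf15 and Fgf23 were not in the table.

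Downstream of the receptors, 2 of 20 adaptor and ERK relay genes fell and none rose, with a median of -0.03. Of 18 ERK-induced genes and feedback inhibitors, Spred1, an inhibitor of the relay, fell by 0.47 ± 0.12, and Egr1, an early response gene, rose by 0.87 ± 0.28 (log2 scale; edgeR adjusted p = 0.0172 and 0.0468), with a list median of 0.16. Neither list had a call without WT replicate 1 or without WT replicate 2. Without JMJD1C-LKO replicate 1 the relay had 5 calls and the ERK-induced list 4, and without JMJD1C-LKO replicate 2 the latter had 1, Egr1 having lost its call.

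The 7 tested genes of bile acid synthesis and its regulation, a pathway that FGFR4 with beta-klotho represses in liver, were all past the threshold, 5 higher and 2 lower, with a median log2 fold change of 0.37. Cyp7a1, the rate-limiting enzyme of bile acid synthesis, fell by 0.57 ± 0.08 on the log2 scale (SE, n = 2; edgeR adjusted p = 0.00113), from 166 and 178 to 114 and 118 CPM. Nr1h4, which encodes the bile acid receptor FXR, fell by 0.65 ± 0.09 (edgeR adjusted p = 0.00108). Cyp8b1, the sterol 12-alpha-hydroxylase, and Cyp27a1, the first enzyme of the alternative pathway, rose by 0.65 ± 0.08 and 0.59 ± 0.09 (edgeR adjusted p = 0.000556 and 0.00143). Without WT replicate 1 or 2 the list had 4 calls, 2 in each direction.

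Of 29 genes of the angiopoietin family and the lipoprotein lipase axis, 8 rose and 2 fell, with a median log2 fold change of 0.10. Angptl8, a feeding-induced regulator of lipoprotein lipase, read 306 and 282 CPM in WT and 99.2 and 65.1 CPM in JMJD1C-LKO. It fell by 1.84 ± 0.16 on the log2 scale (SE, n = 2; edgeR adjusted p = 0.000132), opposite in direction to Angptl4. Lpl, lipoprotein lipase itself, rose by 0.30 ± 0.10 (edgeR adjusted p = 0.0405). That call was lost without either WT replicate, without JMJD1C-LKO replicate 2 and with the DESeq2 Wald test. Apoa4, a lipoprotein gene, doubled from 1613 and 1574 to 3154 and 3147 CPM, Apoc2, the activator of lipoprotein lipase, rose by 0.61 ± 0.08, and Lrp1, a remnant receptor, rose by 0.63 ± 0.08 on the log2 scale (edgeR adjusted p = 0.000108, 0.000952 and 0.000653). Without either WT replicate the list had 5 calls.

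Of 29 activin, follistatin and GDF15 partners, 4 rose and 3 fell, with a median log2 fold change of 0.04. The 3 that fell encode activin subunits. Inhba read 82.7 and 92.6 CPM in WT and 28.4 and 22.6 CPM in JMJD1C-LKO and fell by 1.78 ± 0.11 on the log2 scale. Inhbc fell by 1.16 ± 0.10 and Inhbe by 0.79 ± 0.14 (SE, n = 2; edgeR adjusted p = 2.77e-05, 9.80e-05 and 0.00308 in this order). Inhbb, at 0.98 to 2.23 CPM, rose by 0.85 ± 0.28 (edgeR adjusted p = 0.0480). That call was lost without either WT replicate, without JMJD1C-LKO replicate 2, with the DESeq2 Wald test and with limma-voom. Tgfbr2 rose by 0.60 ± 0.10 (edgeR adjusted p = 0.00224). The follistatin-like genes Fstl1 and Fstl3 had log2 fold changes of 0.40 ± 0.18 and -0.12 ± 0.50 (edgeR adjusted p = 0.130 and 0.885). Gfral and Ret, which form the GDF15 receptor, were not in the table. Without either WT replicate the list had 4 calls, and without JMJD1C-LKO replicate 1 it had 12.

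**Figure D3:**
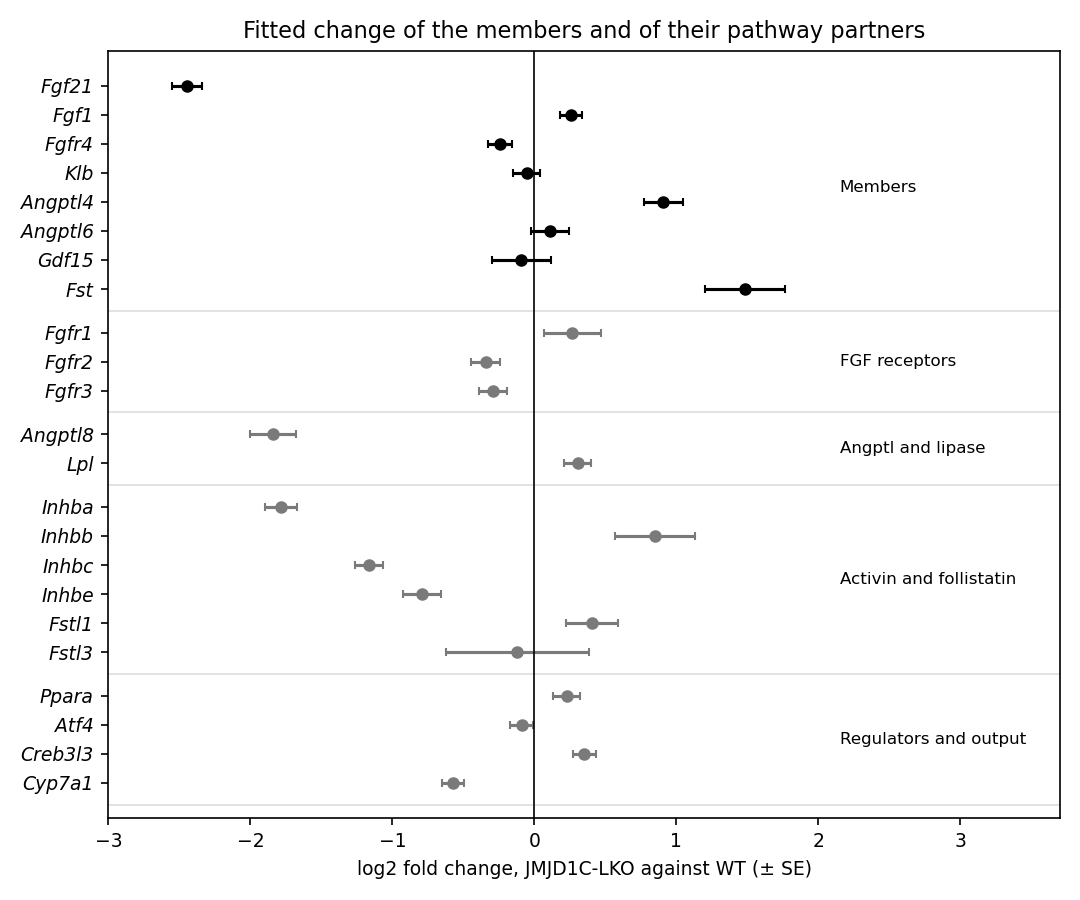
Fitted log2 fold change of refed JMJD1C-LKO against refed WT liver with its standard error (2 libraries a group) for the 8 members (black, described without a test) and 15 fixed partners (grey). Fgf21 lies at -2.45, Angptl8 and Inhba near -1.8, Angptl4 at 0.91 and Fst at 1.48.

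Among 30 regulators with known links to the members, 6 rose and 7 fell, with a median log2 fold change of -0.12. Ppargc1a, a fasting-induced coactivator, rose by 1.72 ± 0.13, and Foxo3 by 0.91 ± 0.15 (log2 scale, SE, n = 2; edgeR adjusted p = 5.40e-05 and 0.00239). Mlxipl, which encodes ChREBP, read 446 and 428 CPM in WT and 307 and 314 CPM in JMJD1C-LKO, and fell by 0.49 ± 0.08 (edgeR adjusted p = 0.00210). Creb3l3, a liver activator of Fgf21, rose by 0.35 ± 0.08 (edgeR adjusted p = 0.0100), and Trp53 fell by 0.46 ± 0.09 (edgeR adjusted p = 0.00509). Ppara at 0.23 ± 0.09 and Atf4 at -0.09 ± 0.08 did not pass (edgeR adjusted p = 0.0979 and 0.450). Without WT replicate 1 the list had 4 calls and without WT replicate 2 it had 2. Creb3l3 and Trp53 lost their calls without either, and Foxo3 without WT replicate 2.

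The target genes of these regulators moved both ways. Of 19 integrated stress response targets, 5 rose and 4 fell, with a median of 0.08. Those that fell were Psat1, Asns, Nupr1 and Slc3a2, with log2 fold changes of -1.95, -1.03, -1.02 and -0.31 (edgeR adjusted p = 0.00383, 0.0260, 0.0252 and 0.0217). Ddit4, an inhibitor of mTORC1, rose from 4.05 and 4.22 to 41.0 and 84.0 CPM, Cebpb by 1.05 ± 0.13, Cth by 0.94 ± 0.11 and Sesn2 by 1.06 ± 0.19 on the log2 scale (SE, n = 2; edgeR adjusted p = 5.81e-05, 0.000662, 0.000534 and 0.00334). Of 26 PPAR-alpha targets, 7 rose and 7 fell, with a median of -0.03. Pdk4, an inhibitor of glucose oxidation, rose from 1.003 and 1.169 to 5.18 and 12.6 CPM, Cpt1a, the gate of mitochondrial fatty acid oxidation, by 0.58 ± 0.08, whereas Acot3 fell by 1.02 ± 0.18 (log2 scale; edgeR adjusted p = 0.000689, 0.00119 and 0.00316). Without WT replicate 1 or 2 the stress list had 5 and 4 calls and the PPAR-alpha list 6 and 4.

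The glucocorticoid and hypoxia list was the one with the highest median among the lists, 0.40, with 11 of 19 higher and 2 lower. Of its glucocorticoid genes all but Dusp1 rose, whereas its hypoxia genes were mixed. The 2 that fell were the hypoxia genes Ankrd37 and Vegfa, with log2 fold changes of -1.60 and -0.30 (edgeR adjusted p = 0.00959 and 0.0239). Of the other hypoxia genes, Ndrg1, Pfkfb3 and Egln3 rose, and Egln1, Bnip3, Slc2a1, Adm and Pdk1 did not pass. Tat, tyrosine aminotransferase, read 592 and 516 CPM in WT and 1992 and 2908 CPM in JMJD1C-LKO. Zbtb16 rose by 1.63 ± 0.16, Pck1, the gluconeogenic enzyme gene, by 1.33 ± 0.13 and Ndrg1 by 1.48 ± 0.17 on the log2 scale (SE, n = 2; edgeR adjusted p = 5.67e-05, 0.000191, 0.000210 and 0.000408 from Tat on). Of 28 other secreted liver factors, 8 rose and 3 fell, with a median of 0.12. Igfbp1, a fasting-induced binding protein of insulin-like growth factors, read 4.92 and 6.19 CPM in WT and 375 and 830 CPM in JMJD1C-LKO (edgeR adjusted p = 1.10e-05). The acute phase genes Orm2 and Orm1 rose by 1.861 ± 0.100 and 0.996 ± 0.093, and Serpina12, which encodes vaspin, by 1.14 ± 0.12 (edgeR adjusted p = 1.10e-05, 0.000165 and 0.000292). Without WT replicate 2 the first list had 7 calls, and without either WT replicate the second had 7. Over all 11 lists, 58 of 235 tested genes rose and 34 fell, or 39.1%, against 28.0% of all genes. The lists were written with earlier results of these data known, so the excess is not independent evidence.

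**Figure D4:**
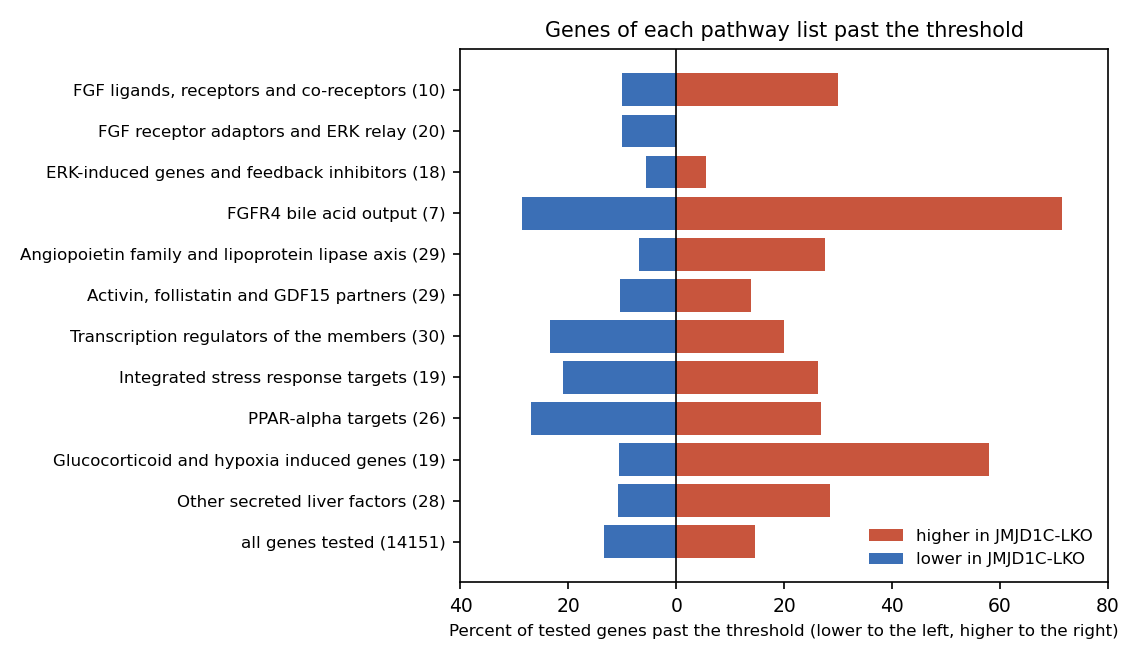
Percent of the tested genes of each pathway list that were higher (right) or lower (left) in JMJD1C-LKO liver past an edgeR adjusted p of 0.05, with the number tested in brackets and all 14151 genes as the last bar. All 7 bile acid genes and 13 of 19 glucocorticoid and hypoxia genes were past it, against 2 of 20 of the ERK relay.

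For chromatin, the deposited peak summits were placed by their distance from RefSeq transcript starts. A gene was counted as having a start summit when one lay within 1000 bp of any of its starts. The lists differed in size. ATAC-seq gave 3119 to 7632 summits in the WT livers but 1450 and 825 in the JMJD1C-LKO livers, and H3K9me2 gave 7690 and 13456 in the fasted livers, 9929 in refed replicate 2 and only 1297 in refed replicate 1. That last liver stood apart, with a start summit at 0.233% of 26180 annotated genes, against 29.3% and 42.7% in the fasted livers and 35.1% in refed replicate 2. Missing summits in it, and in the JMJD1C-LKO livers, are to be read against these sizes. Summit scores, the −log10 of the q-value, are compared only by rank within a liver.

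None of the 8 members had an ATAC start summit in any of the 6 livers. The shares over all annotated genes were 12.0% and 5.49% in fasted WT, 9.94% and 6.24% in refed WT, and 4.06% and 0.886% in JMJD1C-LKO, and those with one in both livers of a group were 4.36%, 4.78% and 0.397%. Among the 13825 genes with an RNA test, to which all members belong, the shares were higher, 20.2% and 9.28%, 16.7% and 10.5%, and 6.66% and 1.31% in the same order. The nearest was at Angptl6, 1577 bp inside the gene in WT refed replicate 1 and 1480 bp inside it in JMJD1C-LKO replicate 1, both of low rank (3475 of 5027 and 1257 of 1450). Beside Angptl4, all 4 WT livers had a summit 20.9 to 21.1 kb downstream of its start, but this lay within 204 bp of the start of the neighbouring gene Rab11b. The nearest ATAC summit to Fgf21 was 89417 to 89660 bp upstream in the 4 WT livers, and in JMJD1C-LKO 154 kb and 461 kb downstream.

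H3K9me2 is known as a mark of silent chromatin, but in these lists it was found more often at the starts of genes with much RNA than of genes with little. From the lowest to the highest of 4 equal groups of genes by RNA level, the share with a start summit went from 10.6% to 84.4% in fasted replicate 1, from 29.1% to 95.8% in fasted replicate 2 and from 15.7% to 91.3% in refed replicate 2, which goes against reading these summits as marks of silent genes. A summit of this ChIP lay within the start region of Fgf21 in both fasted livers and in neither refed liver. The summits were 381 bp after the start in fasted replicate 1 (score rank 3922 of 7690) and 304 bp after it in fasted replicate 2 (rank 9150 of 13456). In refed replicate 2 the nearest was 39913 bp downstream. Of the 7621 genes with a start summit in both fasted livers, 273, or 3.58%, had none in refed replicate 2. With 2 livers a group no exact test could reach p = 0.05, and neither fasted summit was among the stronger ones of its liver. Both summits fell into the coding part of exon 1, shown here as the 238 bases from the start codon to the end of the exon, on the gene's strand, with capitals for the 11 bases centred on each summit. The first run of capitals belongs to fasted replicate 2 and the second to fasted replicate 1.
Fgf21 exon 1, coding part, chr7:45615069-45615306, minus strand: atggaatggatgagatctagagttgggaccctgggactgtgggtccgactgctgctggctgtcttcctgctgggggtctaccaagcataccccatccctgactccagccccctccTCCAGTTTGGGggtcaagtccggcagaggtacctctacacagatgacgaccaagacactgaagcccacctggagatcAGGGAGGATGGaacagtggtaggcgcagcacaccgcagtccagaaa

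A second H3K9me2 site on that side of Fgf21, 40.6 to 40.8 kb downstream, was present in 3 livers, fasted replicates 1 and 2 and refed replicate 2, at rank 147 of 7690, 859 of 13456 and 1207 of 9929. It lay within 440 bp of the start of the noncoding gene 0610005C13Rik.

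Angptl4 had a start summit in 3 of the 4 ChIP livers, all but refed replicate 1. It was 344 bp after the start in fasted replicate 1, where it ranked 69 of 7690, 731 bp after it in fasted replicate 2 (rank 3078 of 13456) and 314 bp after it in refed replicate 2 (rank 2924 of 9929). Gdf15 had one in fasted replicate 2 and refed replicate 2, 783 and 813 bp after its downstream start and inside the gene. Fgfr4 had one in fasted replicate 2 alone, 142 bp after the start. Klb narrowly missed the window, with a summit 1290 to 1348 bp after its start in the same 3 livers. Angptl6, Fgf1 and Fst had none. The nearest to Angptl6 were 8.73 to 8.82 kb upstream, close to the start of Ppan, and Fgf1 had summits about 52 kb inside the gene in the same 3 livers.

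Counted per liver, an H3K9me2 start summit was found at 2 and 4 of 8 members under fasting and at 0 and 2 after refeeding. Among the 13825 genes with both an RNA test and an annotated start the shares were 51.6% and 74.1%, and 0.123% and 61.6%, and the members lay below these shares in each of the 3 livers with many summits. In both fasted livers it was found at 2 members, Fgf21 and Angptl4, against 29.1% of annotated genes. In both refed livers no member had it (0.042% of genes), and without refed replicate 1 the refed count was 2. Of the 62 summits of either assay within 50 kb of a member, 40 lay within 1000 bp of the start of another gene.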

How the data were processed

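Liver RNA-seq, ATAC-seq and H3K9me2 ChIP-seq were analysed from processed files. Estimated counts of RefSeq transcripts, deposited by the authors (HISAT2 and Partek are named in the submitters' processing notes), were summed per gene, rounded, and fitted with edgeR 4.0.16 (TMM scaling, filterByExpr, quasi-likelihood test, 2 against 2 libraries, Benjamini-Hochberg adjustment over 14151 genes). CPM are counts per 1000000 of the scaled library, and the SE is the log2 fold change divided by the square root of F. For the peak samples the authors called peaks with MACS2 2.1.1 on mm10 and deposited the −log10 q-value of each summit. The lists hold no read counts, so their depth is unknown, and starts were taken from RefSeq GRCm38.p6. Of 24994 transcripts, 24682 matched this annotation and gave lengths. A list of the authors' own comparison and the input libraries were not used.

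The members, the pathway lists and the marker lists were chosen with earlier results of these data known. Genes were named by rule: the 8 members, fixed partners, at most 4 genes of each list by smallest p, and the 3 genes nearest in log2 CPM profile to Fgf21 and to Angptl4. Some genes that the rule names are not reported here. Neighbouring genes of summits, single markers, the stress response genes that fell and the proteoglycan genes that did not pass were named after their values were seen. The same holds for Dusp1 and for the hypoxia genes other than Ndrg1. Alternatives were DESeq2 1.42.0 (size factors, Wald test), limma-voom 3.58.1, other filters, a replicate block, other summit windows and scores, and each sample left out. The fit was tested on simulated counts.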

Additional observations from a re-analysis of the deposited data

How the results depend on the processing

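Over the 10 alternatives, Fgf21 was lower and Angptl4, Fst and Fgf1 higher in every one, and Klb and Gdf15 changed sign at values near 0 (-0.14 to 0.03 and -0.27 to 0.07 on the log2 scale). With one library left out in turn, genes past the threshold numbered 1068 to 5180 (660 to 2590 higher, 408 to 2590 lower), list genes 38 to 114 and members 2 to 5, the low values each time without a WT library, which leaves 1 WT library whose spread is assumed to be that of the JMJD1C-LKO libraries. The replicate numbers did not pair the libraries (correlation of same-numbered deviations -0.005), and the fit with a replicate block called 4207 genes, 96 list genes and 4 members. Of the 43 list genes and partners named by the rule and past the threshold, 31 passed it in all 10 alternatives.

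Members with an H3K9me2 start summit in both fasted livers numbered 2, 1 with a 500 bp window, 3 with a 2500 bp window and 0 with the 1297 strongest summits of each liver, and 2 to 4 with one fasted liver left out. In refed liver the count was 0, and 0 to 2 with one liver left out. The ATAC counts were 0 under every alternative.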

Other observations

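The H3K9me2 start summits followed RNA abundance over the 4 equal groups of genes by mean CPM in refed WT liver. In fasted replicate 1 the 2 middle groups had shares of 38.3% and 72.9%, while in refed replicate 1 all shares were 0.058% to 0.174%. Of the members in the highest group, Angptl4 had a start summit in 3 livers, Fgfr4 in 1 and Fgf1 in none. Fgf21 and Klb were in the next group, in which 85.2% of genes had a start summit in refed replicate 2, and neither of them did. In that liver Klb had a summit 1290 bp after its start, just outside the window, and the nearest to Fgf21 was 39913 bp away. The RNA and the ChIP come from different samples, and only the refed group is shared.

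Most H3K9me2 summits beside the members lay at the starts of neighbouring genes. Near Klb they lay within 324 bp of the start of Rpl9 and within 217 bp of the start of Rfc1, near Angptl4 within 420 bp of the start of Rps28, and near Angptl6 within 355 bp of the starts of Shfl, Ppan and Eif3g, in all 3 livers with many summits.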
